A study of Mus musculus with 21 samples.

Results

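The genes described here encode 9 chemokines and the growth factor Csf1 that tumour cells can secrete, namely Cxcl1, Cxcl2, Cxcl5, Cxcl16, Ccl2, Ccl7, Ccl20, Cx3cl1, Csf1 and Ccl28. They were chosen by name out of 19937 genes that the Affymetrix Mouse Gene 1.0 ST array covers by a probe set naming no other gene, and each of the 10 is represented by 1 probe set. Expression was measured in N202 cells, a mouse mammary tumour line. The line is 1 clone, N202.1A, from mammary carcinomas of mice on an FVB background, whose transgene places the rat HER-2/neu gene under the MMTV promoter, and all cells, the parental ones included, carry a stably integrated H2B-GFP construct. Spheroids of these cells were grafted on minced, revascularised tissue of C57BL/6 donors in the dorsal skinfold chamber of female nude mice, which lack most T cells, for 21 days a passage. Between passages the cells were grown in culture under G418.

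The 21 arrays fall into 16 groups. The parental cells (P0) were kept in culture only and have 2 arrays from independent cultures. The cells adapted to brain have 2 arrays at each of passages P1 to P4, the second labelled a technical replicate, for which the adapted cells were cultured and their RNA prepared anew. The cells adapted to bone marrow and to lung have 1 array at each of P1 to P4, the cells on breast tissue 1 array at P1, and a second adaptation experiment on brain 1 array at each of P1 and P2. Before RNA was extracted, GFP-positive cells were sorted and grown again in culture, so every level below is that of cultured tumour cells after removal from the tissue. The values are log2 RMA values, in which 1 unit is 2-fold, and levels of different genes are not compared because each probe set has its own response. The pairs measure the spread between cultures, not between adaptation experiments, and the lone arrays have no replicate of their own. In these bulk samples, fewer cells that express a gene and less of its RNA per cell cannot be told apart.

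Chemokines are small secreted proteins that bind G protein-coupled receptors on leukocytes and set the direction in which those cells move. Cxcl1, Cxcl2 and Cxcl5 share an ELR motif, bind Cxcr2 and attract neutrophils, while Ccl2 and Ccl7 bind Ccr2 and attract monocytes, and Ccl20 binds Ccr6 on lymphocytes and dendritic cells. Cx3cl1 and Cxcl16 are made as transmembrane proteins that metalloproteinases can release, Csf1 drives macrophage survival and growth, and Ccl28 is a mucosal chemokine. Many of these genes are induced through NF-kappaB, a transcription factor that inflammatory cytokines and bacterial products activate.

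The ELR chemokine genes lie together on chromosome 5 in the RefSeq annotation of GRCm38.p6, Cxcl5 at chr5:90759298-90761625, Cxcl1 at chr5:90891245-90893121 and Cxcl2 at chr5:90903899-90905938. Ccl2 (chr11:82035577-82037452) and Ccl7 (chr11:82045712-82047525) are neighbours on chromosome 11, where Cxcl16 (chr11:70454389-70459984) lies as well. Ccl20 is at chr1:83116766-83119167, Csf1 at chr3:107741048-107760469, Cx3cl1 at chr8:94772180-94782427 and Ccl28 at chr13:119623819-119654359. Promoter sequence from RefSeq (GRCm38.p6) was found for 6 of the 10 genes, and the 250 bases before the annotated start are shown for 4 of them. Cxcl1, Cxcl2 and Ccl20 are shown because they differed between the parental cultures described below, and Csf1 because it holds the same motif without such a difference. Capitals mark matches to the NF-kappaB consensus of 10 letters, searched on both strands. Cxcl1 (chr5:90890995-90891244, plus strand), Cxcl2 (chr5:90903649-90903898, plus strand), Ccl20 (chr1:83116516-83116765, plus strand) and Csf1 (chr3:107760470-107760719, minus strand) read, 5′ to 3′ along the gene:
Cxcl1: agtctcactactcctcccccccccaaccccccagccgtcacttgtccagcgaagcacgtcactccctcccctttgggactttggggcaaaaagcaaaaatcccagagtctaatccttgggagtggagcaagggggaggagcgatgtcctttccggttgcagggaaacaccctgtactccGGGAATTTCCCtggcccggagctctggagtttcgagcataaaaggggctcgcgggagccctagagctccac
Cxcl2: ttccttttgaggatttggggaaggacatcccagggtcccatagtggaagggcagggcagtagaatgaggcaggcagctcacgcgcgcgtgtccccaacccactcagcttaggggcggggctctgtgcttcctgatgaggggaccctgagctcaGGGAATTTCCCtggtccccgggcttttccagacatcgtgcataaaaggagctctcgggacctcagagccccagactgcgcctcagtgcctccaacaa
Ccl20: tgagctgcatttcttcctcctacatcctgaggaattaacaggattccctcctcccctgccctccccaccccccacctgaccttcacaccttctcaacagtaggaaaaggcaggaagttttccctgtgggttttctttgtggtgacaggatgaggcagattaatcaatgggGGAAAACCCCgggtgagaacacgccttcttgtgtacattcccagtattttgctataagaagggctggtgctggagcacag
Csf1: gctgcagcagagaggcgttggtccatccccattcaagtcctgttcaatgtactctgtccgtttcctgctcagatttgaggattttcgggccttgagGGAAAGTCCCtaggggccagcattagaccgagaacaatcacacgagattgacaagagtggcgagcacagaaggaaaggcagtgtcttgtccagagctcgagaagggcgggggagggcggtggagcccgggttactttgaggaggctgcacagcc
In Cxcl1 and Cxcl2 the capitals are the same letters, 2 overlapping matches on opposite strands, and in Ccl20 and Csf1 they are 1 match each. The consensus was present in 4 of the 6 promoters, those printed, and in 3.75% of 27025 RefSeq promoters of the same length. The letters TATAAA were present in 1 of the 6, that of Cx3cl1, and in 13% of all promoters, and TGANTCA, an AP-1 site, in 0 of the 6 and in 6.87% of all. These matches describe the letters and are not evidence that a factor binds.

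The cells carried epithelial markers of a mammary tumour line. Of 9 epithelial markers, 8 passed the filter on dim probe sets, led by the keratin genes Krt8 and Krt18 with means of 12.77 and 12.63, while Krt19 did not, and Erbb2 was called 1.19 lower than in P0 at brain P1. Of 13 macrophage and leukocyte markers only Cd68, a lysosomal protein, passed, and among the other 12 the highest value on any array was 5.69, of Csf1r. None of the fibroblast, endothelial or lung epithelial markers passed, their most abundant genes being Col1a1 (mean 6.15) and Col3a1 (5.82), Tie1 (4.76) and Cdh5 (4.48), and Foxj1 (5.88) and Sftpa1 (5.09), and of 9 brain cell markers Mbp (mean 7.15) passed, followed by Slc1a2 (5.45). The filter kept the 30% of probe sets with the largest group mean, the lowest at 7.36, and left 7236 genes, among them 9 of the 10 genes described here. The lower quartile of all values, a measure of the floor, was 3.77 to 4.09 on the second brain arrays and 3.89 on the lung P1 array, and 3.55 to 3.70 on the other arrays.

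Cxcl5, an attractant of neutrophils, differed more between the 2 parental cultures than between any adapted arrays. It measured 7.01 and 10.11 in P0 replicates 1 and 2. In the brain series it measured 10.49 and 10.85 at P1, 10.58 and 10.97 at P2, 9.54 and 9.48 at P3 and 10.47 and 10.67 at P4. P0 replicate 1 lay below every other array, and P0 replicate 2 lay inside the range of the adapted ones. On bone marrow Cxcl5 measured 9.97, 10.64, 10.16 and 10.67 at P1 to P4, and on lung 10.13, 9.52, 10.80 and 10.93. The breast array gave 10.20 and the second brain experiment 9.85 and 10.80, so that all 19 adapted arrays fell between 9.48 and 10.97 with a median of 10.49, whatever the tissue.

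Cxcl1, the closest counterpart of Cxcl5 over the groups, measured 8.66 and 10.10 in P0. Its brain pairs were 10.66 and 10.24 at P1, 10.53 and 10.39 at P2, 10.24 and 9.96 at P3 and 10.65 and 9.77 at P4. The other arrays were 9.85, 10.80, 10.35 and 10.59 on bone marrow, 9.53, 9.93, 10.23 and 10.66 on lung, 10.42 on breast and 9.91 and 10.74 in the second brain experiment. As with Cxcl5, P0 replicate 1 was the lowest array, and 13 of the 19 adapted arrays lay above P0 replicate 2.

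Cxcl2 followed the same order in the parental cells, at 7.54 and 9.52, and spread more widely among the adapted ones. In the brain series it measured 9.46 and 8.59 at P1, 8.69 and 8.05 at P2, 9.11 and 8.82 at P3 and 9.17 and 9.03 at P4. In the second brain experiment it was 10.38 and 10.75, above all 8 arrays of the first. On bone marrow Cxcl2 measured 9.17, 9.82, 8.86 and 9.43, on lung 8.87, 9.29, 9.76 and 10.31, and on breast 9.13. All 19 adapted arrays lay above P0 replicate 1 and 5 lay above P0 replicate 2.

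Ccl20 was high at brain P1 and P2 and low at P3 and P4. It measured 7.22 and 9.06 in P0, 9.64 and 9.13 at brain P1, 10.01 and 9.77 at P2, 7.49 and 8.23 at P3 and 8.31 and 7.01 at P4. The early and late brain arrays did not overlap, with P0 replicate 1 among the late values and replicate 2 just under the early ones. Ccl20 measured 8.82, 9.64, 8.33 and 9.27 on bone marrow, 9.03, 8.17, 8.35 and 8.87 on lung, 9.19 on breast and 8.78 and 8.82 in the second brain experiment.

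Ccl2, the main attractant of monocytes in this set, was highest at brain P1. It measured 7.69 and 9.10 in P0, 10.32 and 10.15 at brain P1, 8.67 and 6.92 at P2, 8.0 and 7.42 at P3 and 8.93 and 8.03 at P4. Both P1 arrays lay above every other array, while the P2 pair was 1.76 log2 units apart. The remaining arrays were 9.04, 8.65, 8.55 and 8.51 on bone marrow, 9.06, 7.89, 7.60 and 8.91 on lung, 9.59 on breast and 7.85 and 9.18 in the second brain experiment, whose P1 array did not share the high value.

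Ccl7, which uses the same receptor and neighbours Ccl2 in the genome, had its highest values on the same 2 arrays. It measured 5.56 and 6.87 in P0, 7.82 and 7.41 at brain P1, 6.45 and 5.62 at P2, 5.85 and 5.27 at P3 and 6.09 and 4.71 at P4. All other arrays lay between 5.68 and 6.59. Ccl7 passed the filter of 7.36 only through brain P1, its highest group, so most of its values are near or under the level at which probe sets were set aside, and a high brain P1 was a condition of its being tested.

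Cx3cl1, the membrane-bound ligand of Cx3cr1, differed little between the parental cultures. It measured 8.84 and 8.98 in P0, 8.17 and 7.58 at brain P1, 8.40 and 8.48 at P2, 8.36 and 8.24 at P3 and 9.34 and 8.60 at P4. All brain arrays up to P3 lay below both P0 arrays. The second brain experiment gave 7.59 at P1 and 9.40 at P2, bone marrow 8.43, 9.50, 8.69 and 9.23, lung 8.78, 9.46, 9.45 and 9.90 and breast 8.97. The lowest 2 arrays were thus both brain P1 arrays, 1 from each experiment.

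Cxcl16, the transmembrane ligand of Cxcr6, had the narrowest range of the 9 kept genes on the adapted arrays, while that of Csf1 was wider than that of Cxcl1. Cxcl16 measured 10.62 and 11.14 in P0 and 10.71 to 11.39, with a median of 11.09, on the 19 adapted arrays. Csf1 measured 11.02 and 10.77 in P0 and 10.05 to 11.49, with a median of 10.91, on the adapted arrays, the lowest being brain P2 replicate 2 and the highest lung P4. Ccl28 measured 3.81 to 4.89 on all 21 arrays, near the floor of the arrays, and was not tested with the others.

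**Figure D1:**
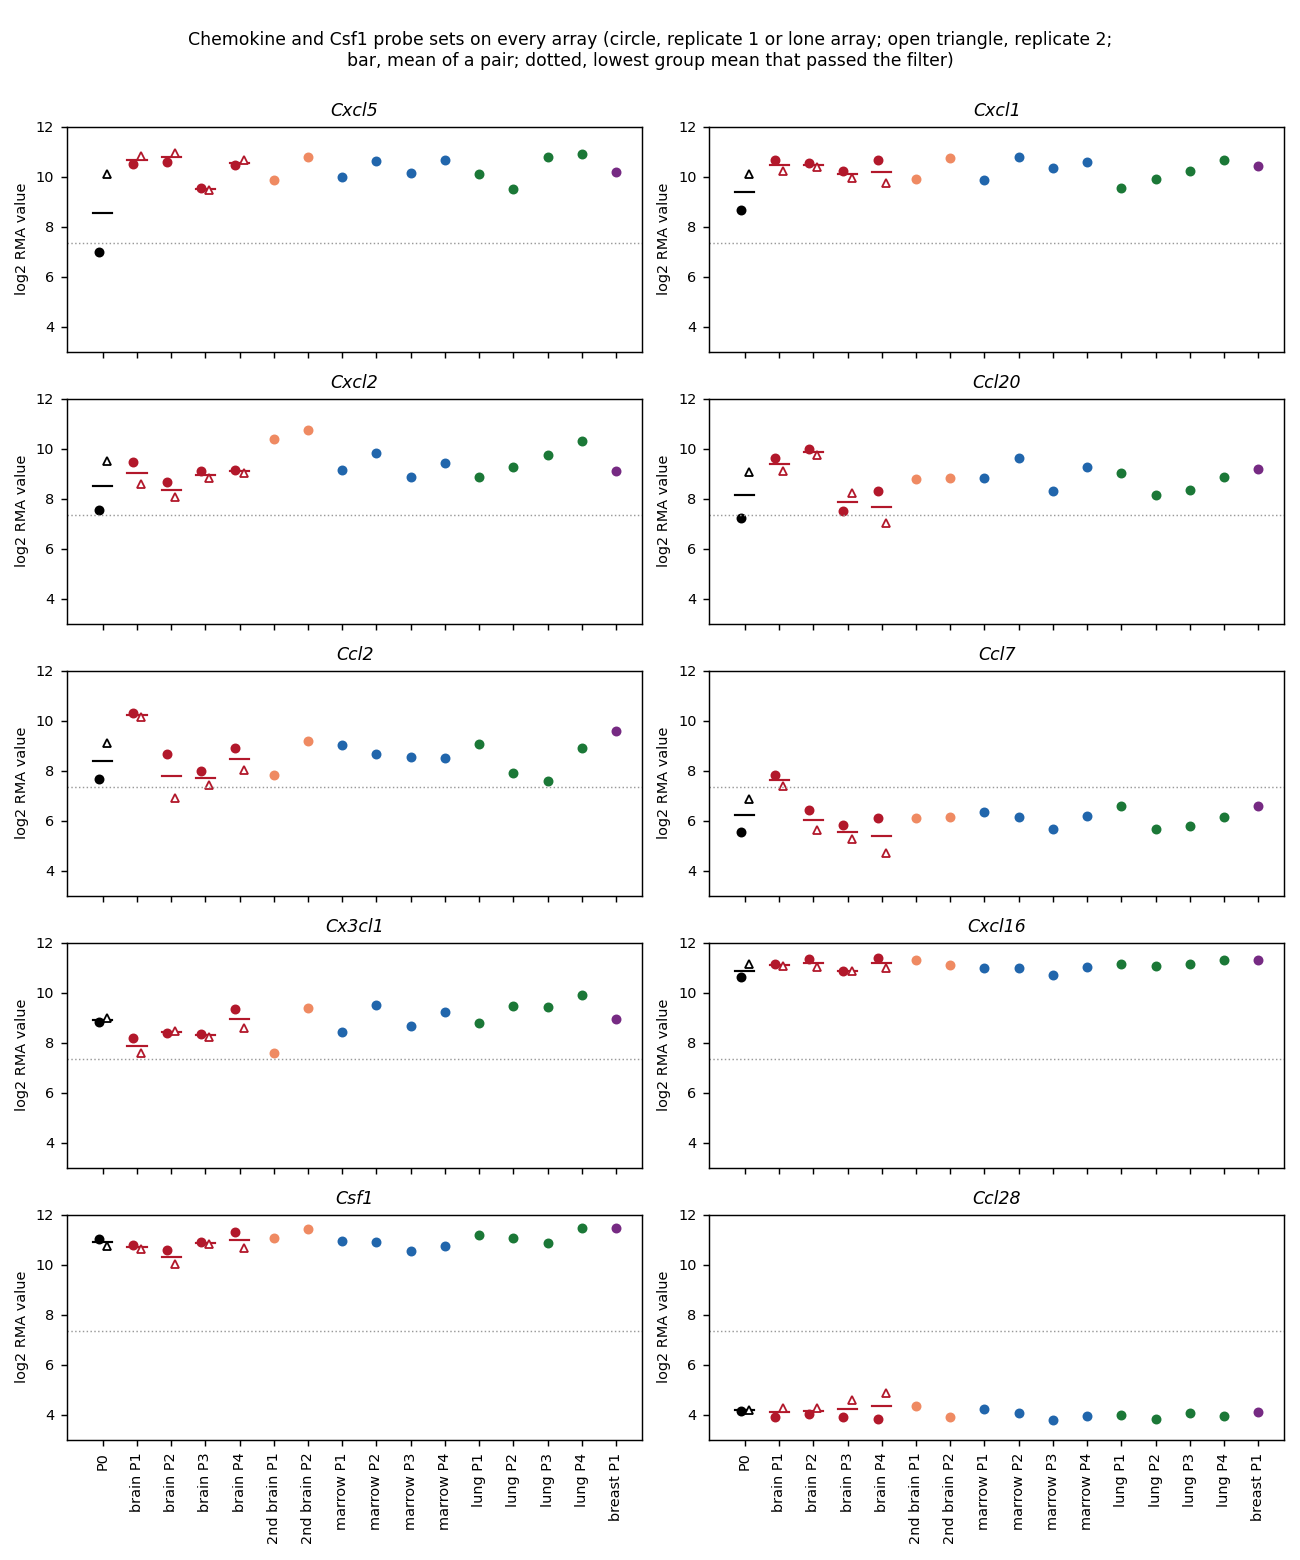
The log2 RMA value of each gene (vertical axis) on each of the 21 arrays, grouped along the horizontal axis by tissue and passage, with circles for replicate 1 or a lone array, open triangles for replicate 2, bars for the mean of a pair and a dotted line at 7.36, the lowest group mean that passed the filter. The P0 circle lies below every other symbol for Cxcl5, Cxcl1, Cxcl2 and Cxcl16, and Ccl20 steps down between brain P2 and P3.

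The same 6 genes, Cxcl5, Cxcl2, Ccl20, Cxcl1, Ccl2 and Ccl7, were all more than 1 log2 unit higher in P0 replicate 2 than in replicate 1. The difference was 3.10 for Cxcl5, an 8.60-fold difference, 1.98 for Cxcl2, 1.83 for Ccl20, 1.44 for Cxcl1, 1.41 for Ccl2 and 1.31 for Ccl7. Cxcl16 differed by 0.52, Cx3cl1 by 0.14, Csf1 by -0.25 and Ccl28 by 0.07. Thus 6 of the 9 kept genes passed 1 log2 unit, where 183 of the 7236 kept genes (2.53%) did, and the median size of the difference over all kept genes was 0.20. In the brain pairs 0, 1, 0 and 2 of the 9 passed that size at P1 to P4, where 0.47%, 1.51%, 2.22% and 2.35% of all kept genes did. These counts describe single pairs of arrays and carry no test, and with 2 cultures it cannot be told which of them is typical. The floor of the 2 parental arrays was alike, with lower quartiles of 3.63 and 3.61, and so was the mean level of the leukocyte markers, at 4.24 and 4.21.

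All 19 adapted arrays lay above P0 replicate 1 for 4 of the 9 genes, Cxcl1, Cxcl2, Cxcl5 and Cxcl16, as they did for 1.74% of all kept genes. Above P0 replicate 2 lay 13, 5, 14 and 7 of the 19 for these genes in the same order. For Ccl20 the counts were 18 and 7, for Ccl2 16 and 4 and for Ccl7 17 and 2.

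**Figure D2:**
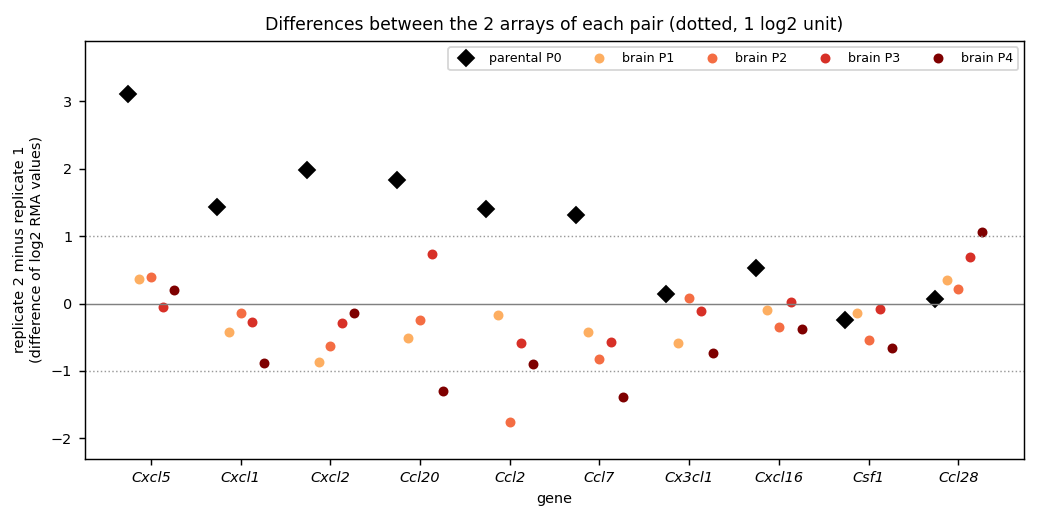
Difference of the log2 RMA value between replicate 2 and replicate 1 (vertical axis) for each gene (horizontal axis), with diamonds for the parental pair and circles for the 4 brain pairs. The diamonds of 6 genes lie above 1, up to 3.10 for Cxcl5, while the brain pairs of the same genes scatter mostly below 0.

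Comparisons with the parental cells addressed which genes differed after growth on each tissue. With limma, at an adjusted p (Benjamini-Hochberg over 10428 probe sets) under 0.05, 0 of the 9 genes were called in any of the 17 comparisons with P0. In the brain series this stands beside 5.68%, 13.4%, 0.663% and 1.02% of all kept genes called at P1 to P4, and at an unadjusted p under 0.05 the number of the 9 was 5, 3, 0 and 1, where 22.2%, 29%, 13.7% and 16.3% of all kept genes were. The share of all kept genes called was 0.124%, 0.152%, 0.304% and 0.221% on bone marrow at P1 to P4 and 0.401% for the mean of the 4, 0.152%, 0.0415%, 0.0553% and 0.0829% on lung and 0.207% for their mean, 0.263% on breast, and 1.59% and 0.0138% in the second brain experiment. Over all 17 comparisons, which share the P0 arrays, 23 of the 153 values of the 9 genes (15%) had an unadjusted p under 0.05, as did 10.1% of the values of all kept genes.

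At brain P1 Ccl2 stood 1.84 above P0 (standard error 0.61, adjusted p = 0.14), or 3.57-fold, and Ccl7 1.40 (standard error 0.54, adjusted p = 0.20). Cx3cl1 stood at -1.03 (standard error 0.27, adjusted p = 0.069). Cxcl5 stood at 2.11 (95% interval 0.39 to 3.84, adjusted p = 0.17) and at P2 at 2.22 (interval 0.49 to 3.94, adjusted p = 0.10). Ccl20 at P2 stood at 1.75 (adjusted p = 0.097) and Cxcl1 at 1.08 (adjusted p = 0.16). The standard errors of the genes that differed between the parental cultures were among the largest of all kept genes, with Cxcl5 (0.76) at the 99.9th percentile and Ccl2 (0.61), Ccl20 (0.59), Cxcl2 (0.56), Ccl7 (0.54) and Cxcl1 (0.44) above the 98th, against a median of 0.23 over all kept probe sets. Of the 9 genes, 7 had a positive difference at brain P1, with a median of 1.07 where that of all kept genes was -0.02, and 4 at P2, with a median of -0.16 where that of all kept genes was -0.05.

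The result for Cxcl5 depended on which parental array was used. Without P0 replicate 2, Cxcl5 was called higher in 14 of the 15 single groups, by 2.50 to 3.92 with adjusted p from 0.0012 to 0.036, the exception being lung P2 (2.51, adjusted p = 0.10), while the share of all kept genes called was 0% to 2.56% in these groups other than brain P2. Cxcl1 (1.80, adjusted p = 0.035) and Ccl20 (2.66, adjusted p = 0.032) were then called at brain P2 as well, where 7.21% of all kept genes were called. Without P0 replicate 1, 0 of the 9 genes were called against P0 in any group, where 0.0276% to 3.92% of all kept genes were, and Cxcl5 stood at 0.56 at brain P1 and -0.60 at P3. In both settings the spread between the parental cultures no longer enters the test, and which setting is closer to the parental line was not tested.

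**Figure D3:**
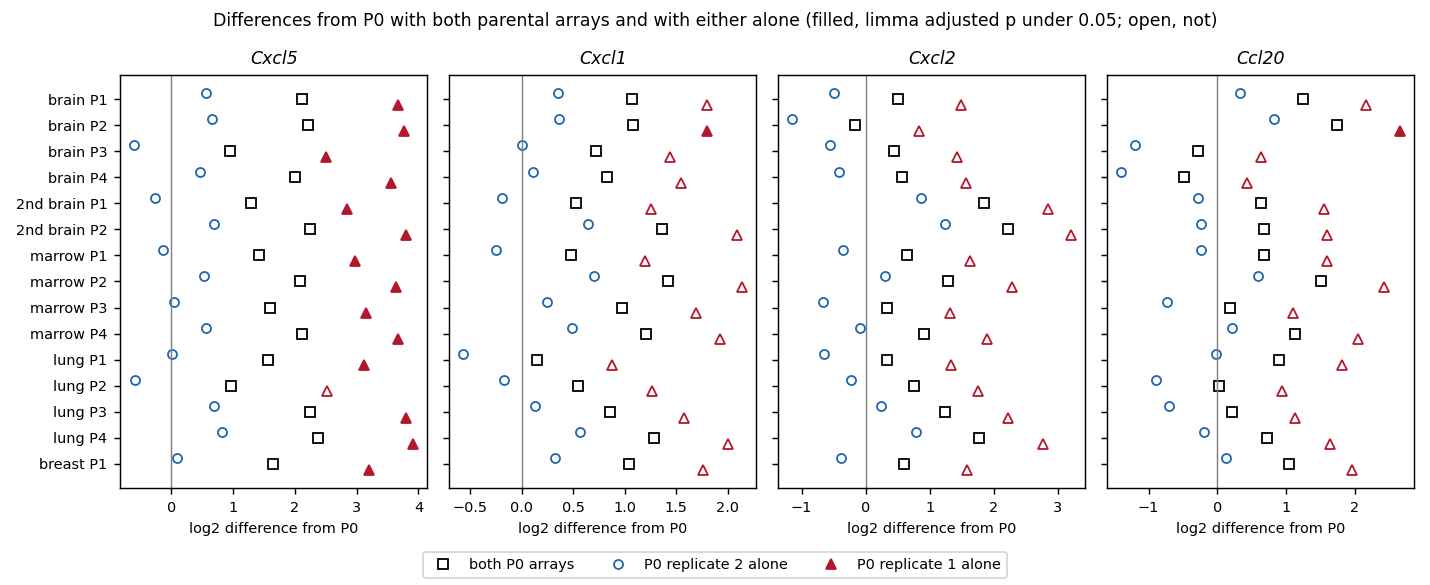
Log2 difference from P0 (horizontal axes) of Cxcl5, Cxcl1, Cxcl2 and Ccl20 in each adapted group (vertical axis), with squares for both parental arrays, circles for P0 replicate 2 alone and triangles for P0 replicate 1 alone, filled where the limma adjusted p was under 0.05. All filled symbols are triangles, and the circles of Cxcl5 lie on both sides of 0.

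Bone marrow, lung and breast gave values of the same order for the ELR chemokines. For the mean of the 4 passages, Cxcl5 stood 1.80 above P0 on bone marrow (standard error 0.66, limma adjusted p = 0.52) and 1.78 on lung (standard error 0.66, adjusted p = 0.82), and Cxcl1 1.02 and 0.71. Bone marrow did not differ from lung by the test for any of the 9 genes, with 0 called where 0.124% of all kept genes were and 0 at an unadjusted p under 0.05, where 14.2% were. The largest difference between them was that of Cx3cl1, 0.43 lower on bone marrow, with a 95% interval of -0.87 to 0.01.

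Within the brain series, Ccl20 fell from the early to the late passages, a comparison that does not involve the parental arrays. Ccl20 measured 9.13 to 10.01 on the 4 arrays of P1 and P2 and 7.01 to 8.31 on the 4 arrays of P3 and P4, a log2 difference of -1.88 (standard error 0.42, limma adjusted p = 0.013), or 3.67-fold lower. Ccl7 stood at -1.34 (standard error 0.38, adjusted p = 0.033), its arrays overlapping in part, with the 2 arrays of P1 above all others. Because it was tested only through its high brain P1 mean of 7.61, 1 of the 2 early passages, its call is no independent sign of a fall. The other 7 were not called, Ccl2 at -0.92 (standard error 0.43, adjusted p = 0.15), Cx3cl1 at 0.47 (adjusted p = 0.11) and Csf1 at 0.41 (adjusted p = 0.14) being the nearest. The 2 of 9 genes called stand beside 27.7% of all kept genes. With the second arrays taken as a replicate block, 4 of the 9 were called where 33.3% of all kept genes were, the additions being Ccl2 (adjusted p = 0.034) and Cxcl5 (-0.69, adjusted p = 0.0085).

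The call of Ccl20 held without each single brain array, with adjusted p from 0.01 to 0.048, and was lost without the filter (adjusted p = 0.08). That of Ccl7 held in only 9 of 16 alternatives. It was lost without the filter (limma adjusted p = 0.16). Other settings in which it was lost include those without brain P1 replicate 1, brain P1 replicate 2, brain P2 replicate 1, brain P3 replicate 2 or brain P4 replicate 2. Without brain P2 replicate 2 Ccl2 was called too (-1.36, adjusted p = 0.043), and without brain P4 replicate 2 Cx3cl1 was called higher late (0.66, adjusted p = 0.036). Among the leukocyte markers Cd68, which passed the filter through brain P1, P2 and P4 and lung P4, stood at 1.94 above P0 at brain P1 (adjusted p = 0.016), 2.24 at P2 (adjusted p = 0.0059), 0.73 at P3 (adjusted p = 0.44) and 1.71 at P4 (adjusted p = 0.07), and at -0.87 in the late against the early passages (adjusted p = 0.031). Over all 13 leukocyte markers the mean level was 4.21 and 4.24 in P0, 4.39 to 4.53 on the early brain arrays and 4.23 to 4.80 on the late ones. The highest value of each marker on any array ran from 3.94, of Itgam, to 8.48, of Cd68, with Csf1r next to it at 5.69.

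Single steps of the brain series were compared after the values had been seen. From P1 to P2 Ccl2 fell short of the threshold at -2.44 (standard error 0.61, limma adjusted p = 0.083) and 0 of the 9 were called where 2.06% of all kept genes were, with 2 at an unadjusted p under 0.05, where 19.8% were. With the replicate block Ccl2 (adjusted p = 0.028) and Ccl7 (-1.58, adjusted p = 0.034) were called lower at P2, where 3.52% of all kept genes were called, Ccl7 again having been tested only through P1. From P2 to P3 Ccl20 fell by 2.03 (standard error 0.59, adjusted p = 0.042), the 1 of 9 called where 24% of all kept genes were. That call was lost without any 1 of the 4 arrays, with adjusted p from 0.074 to 0.17, and with the block Cxcl5 was called as well (-1.27, adjusted p = 0.0045) where 29.5% of all kept genes were.

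Cx3cl1 was lower in the cells of the first brain experiment than in those adapted to lung. Its 8 arrays of that experiment ranged from 7.58 to 9.34 and its 4 lung arrays from 8.78 to 9.90, so that they overlapped only through brain P4 replicate 1. The second brain experiment, not part of this comparison, gave 7.59 at P1 and 9.40 at P2, the latter inside the lung range. The passages compared come from 1 adaptation series per tissue and are not replicates of the tissue. The difference between the means of the 4 passages was -1.0 (standard error 0.17, limma adjusted p = 0.013), in a comparison chosen after the values had been seen in which 1 of the 9 genes and 7.92% of all kept genes were called. It was called without each single brain array (-1.09 to -0.91) but not without the filter (adjusted p = 0.13). At P1 alone, brain against the mean of bone marrow, lung and breast, 0 of the 9 were called where 11.8% of all kept genes were and 1 had an unadjusted p under 0.05, where 26.9% had, namely Cx3cl1 at -0.85 (standard error 0.25, adjusted p = 0.067). Ccl7 stood at 1.10 and Ccl2 at 1.0 there, with 95% intervals of -0.02 to 2.22 and -0.26 to 2.26.

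**Figure D4:**
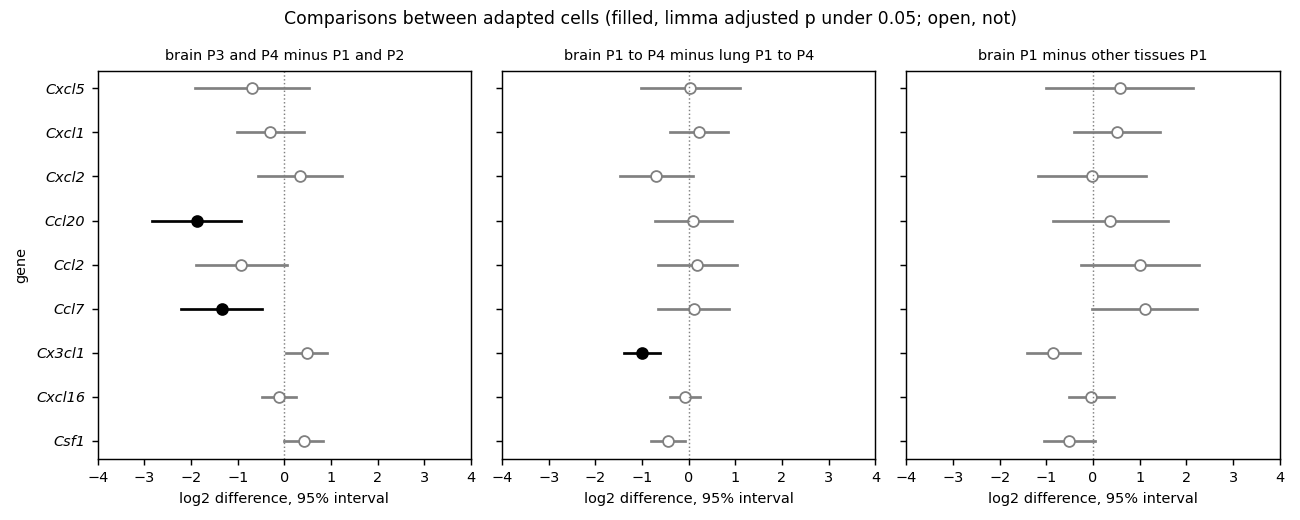
Log2 differences with 95% intervals (horizontal axes) of the 9 kept genes (vertical axis) in 3 comparisons between adapted cells, filled where the limma adjusted p was under 0.05. Filled symbols stand for Ccl20 at -1.88 and Ccl7, which passed the filter only through brain P1, at -1.34 in the late against the early brain passages and for Cx3cl1 at -1.0 in brain against lung.

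The second adaptation to brain, with 1 array at each passage, did not differ from the first by the test for any of the 9 genes. At P1 it stood 2.39 below the first for Ccl2 (standard error 0.75, limma adjusted p = 0.10) and 1.35 above it for Cxcl2 (adjusted p = 0.30), with 0 of the 9 called, 2 at an unadjusted p under 0.05, and 6.99% and 24% of all kept genes at these thresholds. At P2 Cxcl2 stood 2.38 above the first experiment (standard error 0.68, adjusted p = 0.072) and Csf1 1.11 (standard error 0.32, adjusted p = 0.073), with 0 of the 9 called, 3 at an unadjusted p under 0.05, and 8.58% and 24.8% of all kept genes at these thresholds. Cx3cl1 was the gene on which both experiments gave a low P1, at -1.03 and -1.32 from P0, the latter with adjusted p = 0.10. With both experiments in one model and the experiment as a random block, Cx3cl1 stood at -1.10 at P1 (limma adjusted p = 0.86). That model called 0% of all kept genes at P1.

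Of 26 other chemokine genes on the array only 4 passed the filter, Ppbp, Ccl5, Ccl9 and Ccl19. Ccl5, an attractant of T cells, measured 7.95 and 7.14 in P0 and was lower at all 4 brain passages, by 2.14 at P1 (limma adjusted p = 0.008), 1.97, 1.92 and 2.15. It lay below both P0 arrays on 18 of the 19 adapted arrays of all tissues (median 5.91) and stood at -1.39 on bone marrow (adjusted p = 0.12) and -1.19 on lung (adjusted p = 0.31). Ccl5 passed the filter only through P0, so a higher P0 was a condition of its being tested. Ccl9, which attracts myeloid cells, measured 6.42 and 6.25 in P0, 8.76 and 9.55 at brain P1 and 7.03 and 7.50 at P2, being 2.82 higher at P1 (standard error 0.27) and 2.54 lower in the late than in the early passages, and it passed the filter only through brain P1 and, narrowly, lung P2 (7.37). Ppbp, an ELR chemokine carried by platelets, was 1.09 higher at brain P1 (adjusted p = 0.027), 1.97 at brain P3 and 2.97 at bone marrow P3, the group through which alone it passed the filter. It was also called at bone marrow P4 and for the mean of the 4 bone marrow passages, P3 included, where 0.221% and 0.401% of all kept genes were. Ppbp measured 4.88 and 5.20 in P0 and lay above both on all 19 adapted arrays, at 5.30 to 8.01 with a median of 6.16. Ccl19 measured 7.76 and 6.94 in P0, and 7.73 and 5.16 at brain P1. The other 22 reached at most 7.16 on any array, the value of Cxcl3 at brain P1. Of the 22 chemokine and Csf1 receptors none passed, the highest value on any array being 6.56, of Cx3cr1.

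Among cytokines that act beside the chemokines, Il33, Lbp, Il23a and Lif were called higher at brain P2 of the first experiment and lower in its late passages. Il33 passed the filter only through brain P2, so a high brain P2 was a condition of its being tested. Its calls in the comparisons that include brain P2, counted below, are thus no independent sign of a change. Of 17 genes, 10 passed the filter, and 2 rose and 0 fell at brain P1, where 1.98% of all kept genes rose and 3.7% fell, namely Il33 by 1.98 (limma adjusted p = 0.034) and Ptgs2, the inducible cyclooxygenase, by 2.88 (adjusted p = 0.046). At P2 4 rose and 0 fell, where 4.95% of all kept genes rose and 8.43% fell, namely Il33 by 3.28, the lipopolysaccharide-binding protein gene Lbp by 3.22, Il23a by 1.34 and Lif by 1.32. In the late against the early passages 0 rose and 6 fell, where 11.1% of all kept genes rose and 16.7% fell, namely Il33 and Lbp by 2.47 each, Il23a by 1.63, the receptor antagonist Il1rn by 1.16, the lipopolysaccharide receptor Cd14 by 0.78 and Lif by 0.67, with a median over the 10 of -0.87 where that of all kept genes was -0.10. In the second brain experiment 0 of the 10 were called against P0 at P1 or P2, where 1.59% and 0.0138% of all kept genes were. At P2 Il33, Il23a and Lbp were called lower there than in the first experiment, 3 of 10 where 8.58% of all kept genes were called. Lbp, like Cxcl5, was far apart in the parental cultures, at 6.11 and 8.65.

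Of the genes of the NF-kappaB system itself, 1 was called against P0 at brain P1 and 4 at P2, and in the late against the early passages 2 of 9, 3 of 12 and 5 of 13 in the lists that follow, beside 27.7% of all kept genes. Of 12 subunit and kinase genes 9 passed the filter, and at brain P1 0 were called by limma, with 0 at an unadjusted p under 0.05, beside 5.68% and 22.2% of all kept genes. At P2, where 13.4% of all kept genes were called, Tab2, an adaptor of the Tak1 kinase, rose by 0.70 and Map3k7, which encodes that kinase, fell by 0.97, and in the late against the early passages Tab2 fell by 0.59 and Map3k7 rose by 0.57. Both genes were also called different between the second brain experiment and the first at P2, where 8.58% of all kept genes were called. Of 16 feedback genes and targets 12 passed, with 0 called at brain P1 and P2 and 1 and 4 at an unadjusted p under 0.05, beside 22.2% and 29% of all kept genes, and in the late against the early passages the inhibitor genes Nfkbia and Tnfaip3 rose by 0.50 and 0.54 and Birc3 fell by 0.60. Of 19 receptors and adaptors upstream 13 passed, with Tnfrsf1b, a receptor of TNF, 1.03 lower at P1, and Tlr2 and Il17rc, a subunit of the interleukin 17 receptor, 1.32 and 1.18 lower at P2. In the late against the early passages 3 of these rose, Tlr2 by 1.64, Il17rc by 1.08 and Tnfrsf1b by 0.80, and 2 fell, Il1rap by 1.21 and Irak2 by 0.97.

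Of 5 genes that act in the release of Cxcl16 and Cx3cl1 from the membrane, all kept, only Timp3, an inhibitor of the releasing enzymes, was called. It was 5.16 lower at brain P1, 5.40 lower at P2 and 4.60 higher in the late passages. In these comparisons 5.68%, 13.4% and 27.7% of all kept genes were called. Of 8 genes for proteins that regulate chemokine messages, all kept, 0 were called against P0 at brain P1 or P2, with 1 and 2 at an unadjusted p under 0.05, beside 5.68% and 13.4% of all kept genes called and 22.2% and 29% at an unadjusted p under 0.05. Against bone marrow, lung and breast at P1 the brain cells had 0.97 less Zfp36l1 (adjusted p = 0.028 by limma).

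Over the 16 group means, with P0 among them, Pearson correlations between the genes were highest for Cxcl1 with Cxcl5 (0.80) and Ccl2 with Ccl7 (0.80), followed by Ccl7 with Ccl20 (0.62) and Cxcl2 with Csf1 (0.59). On the 19 adapted arrays alone they were 0.54, 0.83, 0.64 and 0.66. These are descriptions over groups that share a cell line, passages and a normalization, and the brain pairs share their cells. Among all 7235 other kept genes, the 3 most like Cxcl5 were Cxcl1 (0.80), Zc3h12a (0.77), which encodes a ribonuclease of cytokine messages, and Micall2 (0.73). The most like Cxcl1 were St3gal4 (0.88), Cxcl5 (0.80) and C2cd2l (0.75), those most like Cxcl2 Acod1 (0.85), Sh3bp2 (0.77) and Plagl2 (0.77), and those most like Ccl2 Gclc (0.88), Fam111a (0.83) and Ccl7 (0.80). For Ccl7 they were Rp2 (0.89), Gatad1 (0.87) and Exoc1 (0.87), for Ccl20 Atrx (0.87), Lpar6 (0.86) and Nbeal1 (0.85), and for Cx3cl1 Ly6e (0.91), Clu (0.90) and Sidt2 (0.84). For Csf1 they were Pias4 (0.88), Il17rc (0.87) and Fosl2 (0.86), and for Cxcl16 Atf6b (0.84), Sec16a (0.82) and Rab11fip5 (0.82).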

How the data were processed

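The authors turned probe intensities into 1 log2 value per probe set by RMA in the Affymetrix Expression Console, and the deposited log2 values of 34760 probe sets were used without further scaling. Of these, 21640 carried 1 gene symbol, 1321 several and 11799 none, and 21553 were found in the RefSeq table for GRCm38.p6. For each gene the probe set with the highest mean over the 21 arrays was used. The authors' filter against negative control probes was replaced by keeping the 30% of probe sets with the largest group mean. Groups came from the titles of the arrays.

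The 10428 kept probe sets entered 1 limma model of the 16 group means, with limma 3.58.1 (R 4.3.3), with 5 residual and 3.91 prior degrees of freedom. Lone arrays were assumed to vary like the pairs. The number of arrays limits the precision, the median standard error being 0.23 for 2 against 2 arrays and 0.28 for 1 against 2. A gene was called at a Benjamini-Hochberg adjusted p under 0.05. Genes of the other lists were named where called, or else by lowest p. Likeness was Pearson's r over group means.

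The labels mark the second brain arrays as technical replicates, and the correlation of the differences within pairs over 7236 genes was 0.12 to 0.41 for every 2 passages, so the replicate number was also fitted as a block. The alternatives were no filter, a filter of 20%, cyclic loess, array medians set equal, the average of a gene's probe sets, a variance trend, a 2-fold limit, chromosome medians subtracted, each array of a pair left out, the block and both brain experiments in one model. The genes, lists and tests were chosen with earlier results of these data known. Promoters were searched with Python 3.11.15, and figures were drawn with matplotlib 3.10.9.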

Additional observations from a re-analysis of the deposited data

Results flagged for a closer look

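Differences between groups or passages of adapted cells passed limma's test of the difference itself for 3 genes. Ccl20 stood at -1.88 and Ccl7 at -1.34 in brain P3 and P4 against brain P1 and P2, where 27.7% of all kept genes were called, and Ccl7 was tested only because its high brain P1 mean passed the filter. Ccl20 stood at -2.03 in brain P3 against brain P2, where 24% of all kept genes were called, and Cx3cl1 at -1.0 in brain P1 to P4 against lung P1 to P4, where 7.92% were, both in comparisons chosen after the values had been seen. No group had enough arrays for a check of single outlying arrays.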

How the results depend on the processing

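Of the counts of called genes under the alternatives, 234 stayed within 1.5 times the main count, 29 were higher and 14 lower. In the late against the early brain passages 2 of the 9 genes were called, 0 without the filter, 1 with the filter of 20%, which does not keep Ccl7, and 4 with the replicate block. The share of all genes tested that was called was 27.7% in the main fit, 4.17% without the filter, 31.8% with that of 20% and 33.3% with the block. With the replicate block 2 were called in brain P2 against P1, where 3.52% of all kept genes were, and 2 in brain P3 against P2, where 29.5% were. In brain P3 against P2, where 1 was called, it was 0 without the filter and 0 with chromosome medians subtracted. For brain P3 against P2 the share of all genes tested that was called was 24% in the main fit, 2.35% without the filter and 21.5% with chromosome medians subtracted. In brain against lung, 0 were called without the filter, where 0.246% of all genes tested were. With the 2-fold limit 0 were called too, where 1.89% were, the difference being just under 2-fold. Without the filter more probe sets are tested.

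With a gene's probe sets averaged, which leaves 7087 genes tested, 1 gene was called at brain P1 (Cx3cl1), where 8.76% of all genes tested were. In the second brain experiment 1 was called at P1 against P0 (Cx3cl1), where 3.87% were. Against the first experiment 1 was called at P1 (Ccl2), where 10.7% were, and 2 at P2 (Cxcl2 and Csf1), where 12.4% were. In brain P2 against P1 it was 1 (Ccl2), where 4.74% were, and in brain P1 against the other tissues 1 (Cx3cl1), where 16% were. That last count was also 1 with cyclic loess, where 14.2% of all kept genes were called, and 1 with chromosome medians subtracted, where 7.45% were. Subtracting chromosome medians gave 1 at brain P1 against P0 too (Cx3cl1, limma adjusted p = 0.049), where 4.51% were. A variance trend gave 1 in the second experiment at P2 against the first (Csf1), where 8.64% of all kept genes were called. Leaving out a parental or brain array left 1 array in that group. Counts of genes called in those fits are not given here. In the averaged setting the values of the genes described here were unchanged, each having 1 probe set, and only what was tested beside them differed. The causes of the other changes were not tested. The replicate block was fitted in 3 comparisons within the brain series and changed no other call there. No called value changed sign, and 128 values of single genes that were called under neither setting did.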

Other observations

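Other inflammatory genes also stood apart in the parental cultures, picked here after their values had been seen. Csf3, the granulocyte growth factor, measured 6.64 and 9.17 in P0 replicates 1 and 2 and 7.45 to 9.69 on the 19 adapted arrays, all above replicate 1. Lbp measured 6.11 and 8.65 and Zc3h12a 5.97 and 7.68. Saa3, an acute phase gene that did not pass the filter, was 2.94 higher in replicate 2. Ptgs2 ran the other way, at 10.47 and 8.16, as did Clcf1, at 7.34 and 6.11. Among the kept genes of each list, 0 of 4 other chemokines, 4 of 10 cytokines, 0 of 5 genes acting in the release of Cxcl16 and Cx3cl1, 0 of 9 NF-kappaB subunits and kinases, 1 of 12 feedback genes, 1 of 13 upstream receptors and adaptors and 1 of 8 message regulators differed by over 1 log2 unit, beside 2.53% of all kept genes. The median difference, replicate 2 minus replicate 1, was -0.49 for the other chemokines and 1.41 for the 9 kept genes described here.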
